A study of Homo sapiens
Mus musculus with 24 samples.

Results

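The comparison of tumors from mice given moringa concentrate with chemotherapy (MC + Chemo) and tumors from mice given chemotherapy alone (Chemo) rested on 11 of the 24 sequenced tumors, 6 from MC + Chemo and 5 from Chemo. Tumors were assigned by their titles, and no tumor of CTRL mice, which ate the high fat diet and had saline injections, entered the comparison. All 11 came from female mice of the strain B6/Rag1KO, in which Rag1 is lost and mature T and B lymphocytes are therefore not made, while macrophages, neutrophils, mast cells, dendritic cells and natural killer cells remain. The mice ate a high fat diet with 60% of its energy from fat and received MDA-MB-231 cells, a human triple-negative breast cancer line, under the skin at the neck base when 14 weeks old. Chemo mice then had weekly intraperitoneal doxorubicin (2 mg/kg) and cyclophosphamide (100 mg/kg) for 4 weeks. MC + Chemo mice had the same injections and a high fat diet with 0.6% MC. Each tumor came from a different mouse, whose number follows the group in its name. The figure legends of the study give 6 Chemo and 5 MC + Chemo mice, the reverse of the numbers by title. For MC + Chemo 5 another field of the labels gives the MC diet without chemotherapy. The edgeR counts of genes between MC + Chemo and Chemo were therefore also run without it. Counts by DESeq2 and counts of genes without overlap were not.

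Doxorubicin blocks topoisomerase II and cyclophosphamide alkylates DNA, and both act mainly on dividing cells. MC is a seed extract rich in an isothiocyanate, a class of electrophiles best known for switching on NRF2, the transcription factor of antioxidant and detoxifying enzymes, and for evoking heat shock and endoplasmic reticulum stress responses. In a xenograft the human transcripts come from the injected cancer cells and the murine transcripts from the host, which supplies vessels, fibroblasts, immune cells and any neighboring muscle, fat or skin taken with the tumor.

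Human reads made up 66.2 ± 4.37% of the counts in Chemo (mean ± SD, n = 5, range 60.1 to 71.3%) and 67.3 ± 4.24% in MC + Chemo (n = 6, range 62.5 to 74.0%), a difference smaller than the spread between tumors (two-sided exact permutation p = 0.669, adjusted p = 0.916 over 11 measures). Human counts per tumor ran from 7895726 to 16669238 and murine counts from 3664056 to 7190836. No 2 of the deposited libraries were identical. MC + Chemo 25 stood apart in the murine reads, with 26.3% of them on identifiers without a symbol against 11.95 to 16.3% in the other MC + Chemo tumors. In the human reads both mesenchymal and epithelial transcripts were abundant in all 11 tumors. Vimentin (VIM) ran from 4606 to 9795 in Chemo and 6512 to 16955 in MC + Chemo. E-cadherin (CDH1) ran from 2786 to 4110.4 in Chemo and 2711 to 4622 in MC + Chemo, although MDA-MB-231 is usually described as a mesenchymal-like line with little CDH1. The identity of the cells was not tested. In bulk tissue, fewer cells of a type and less RNA per cell cannot be told apart.

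No gene passed the 3 criteria for a change between MC + Chemo and Chemo (an adjusted p below 0.05, over 30 normalized counts on average and more than a 1.5-fold change) by the edgeR quasi-likelihood test. In the murine genome 0 of 13976 genes passed (0%), and the smallest adjusted p was 0.103. At an unadjusted p below 0.05, 747 murine genes were higher in MC + Chemo (5.34%) and 921 lower (6.59%). In the human genome 0 of 15315 genes passed (0%), the smallest adjusted p was 0.103, and 687 genes were higher (4.49%) and 1354 lower (8.84%) at an unadjusted p below 0.05. All MC + Chemo tumors lay above all Chemo tumors for 35 murine (0.25%) and 58 human genes (0.379%), and below them for 139 murine (0.995%) and 227 human genes (1.48%). DESeq2 on the same tumors, the tool of the study, called 77 murine genes (0.463%), 29 higher and 48 lower, and 93 human genes (0.523%), 8 higher and 85 lower. The share of lower genes depended on scaling. Of the genes at an unadjusted p below 0.05, 55.2% in the murine and 66.3% in the human genome were lower, against 82.9% and 84.4% when counts were scaled by library totals alone, which moved the median log2 fold change of all genes from 0.02 to -0.13 in the murine and from 0.01 to -0.07 in the human genome. The edgeR count of 0 depended on Chemo 67. Without this tumor edgeR called 20 murine genes (0.143%), of which 18 were lower, and 13 human genes (0.0839%), all lower in MC + Chemo. Those with a symbol included Gli1, Krit1 and Mdm4 in the murine genome and were GABRE and PADI1 in the human genome, while 11 of the 20 and 11 of the 13 had no symbol. Without MC + Chemo 5, edgeR again called 0 genes in both genomes.

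**Figure D1:**
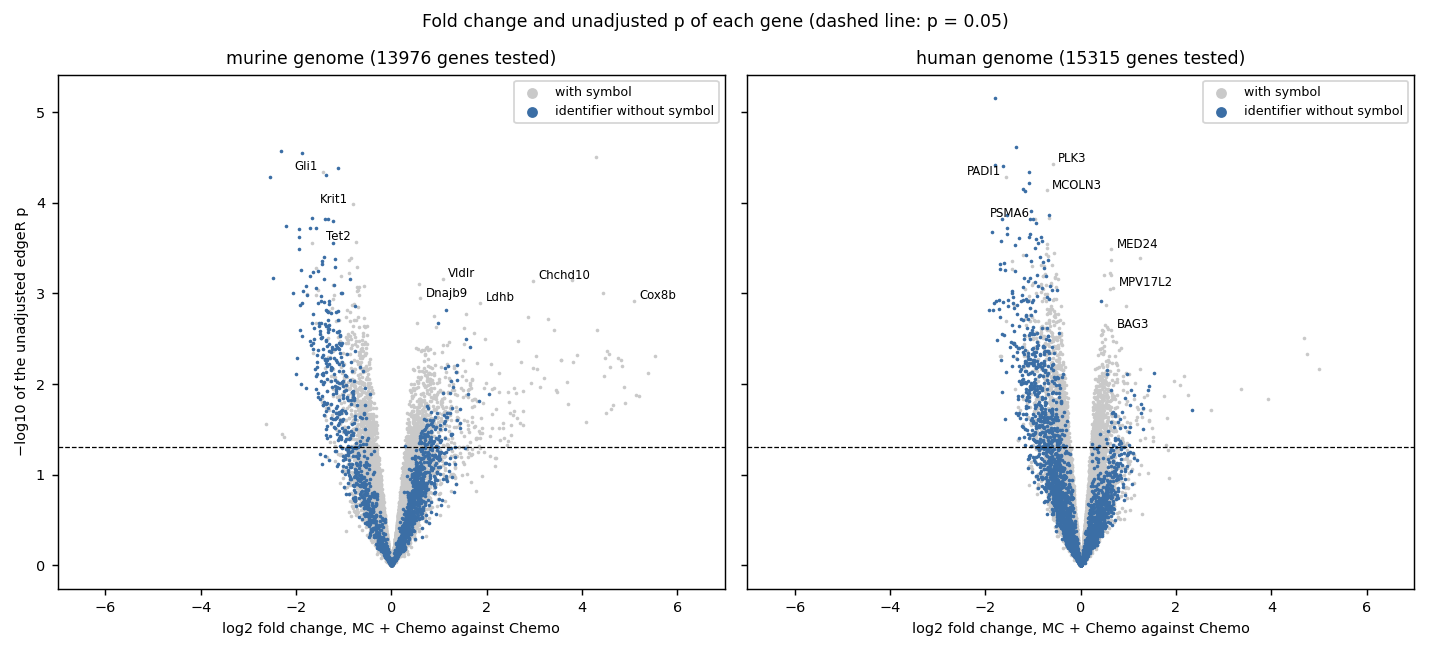
Log2 fold change of MC + Chemo against Chemo (x axis) and −log10 of the unadjusted edgeR p (y axis), for all murine genes tested (left) and all human genes tested (right). Identifiers without a symbol are in blue and gather on the lower side above the dashed line (an unadjusted p of 0.05) in both genomes, and the murine genes far to the right are mostly muscle and fat genes such as Cox8b and Chchd10.

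The largest murine differences were in skeletal muscle and fat transcripts, and they came from few tumors. Of 22 muscle markers tested, 21 were higher at an unadjusted p below 0.05, 0 were called by edgeR and 5 by DESeq2, with a median log2 fold change of 4.57 against 0.02 over all murine genes. Their mean log2 level was 3.78, 6.97, 3.82, 3.83 and 4.14 in Chemo and 10.67, 3.56, 11.34, 6.77, 3.56 and 4.78 in MC + Chemo, in order of mouse number (19, 30, 33, 34 and 67 for Chemo, and 5, 25, 43, 47, 50 and 52 for MC + Chemo, as in every list of values here). MC + Chemo 5 and 43 were far above the rest, Chemo 30 and MC + Chemo 47 were intermediate, and the other 7 tumors were low in both groups. Ckm, the muscle creatine kinase, had normalized counts of 7.11, 93.5, 9.997, 8.05 and 18.6 in Chemo and 2775, 10.8, 4499.9, 119.8, 7.97 and 18.7 in MC + Chemo (log2 fold change 5.52 ± 1.66 SE, adjusted p = 0.279). Acta1, skeletal actin, had 15.4, 589.5, 16, 15.3 and 41.9 in Chemo and 10401, 30.5, 18427, 650.1, 11.2 and 91.9 in MC + Chemo (log2 fold change 5.20 ± 1.84 SE, adjusted p = 0.315). With MC + Chemo 5, 43 and 52 left out, the median of the list was 0.31 and 0 of 18 muscle genes tested passed an unadjusted p of 0.05. These tumors had the most muscle or fat reads and were chosen after seeing the data. The fall of the muscle median therefore follows from the choice and is no separate test. It shows only which tumors carried the difference.

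Muscle symbols stood high in the human counts of the same tumors. The summed normalized counts of the 9 muscle symbols tested in the human genome were 415, 943, 453, 404 and 340 in Chemo and 8944, 303, 11799.5, 769, 329 and 283 in MC + Chemo. Fast myosin light chain (MYLPF) had human counts of 17.05, 62.1, 14.2, 13.98 and 10.4 in Chemo and 971, 14.7, 2426, 72.1, 17.1 and 26.6 in MC + Chemo, its log2 fold change there was 4.68 ± 1.33 SE (adjusted p = 0.196), and murine Mylpf had 18.97, 139, 11, 7.25 and 22.4 in Chemo and 1856, 17.96, 4628, 115, 18.3 and 44.2 in MC + Chemo. The 2 tumors with most murine muscle reads thus also had most human muscle reads. The treatment of reads fitting either genome is not given in the sources used here, and their part in any human value was not tested. MYLPF was named after its values were seen.

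Fat transcripts were high in a partly different set of tumors. All 19 adipocyte markers tested were higher, 13 of them at an unadjusted p below 0.05, with a median log2 fold change of 2.49. Their mean log2 level was 5.56, 6.95, 7.65, 7.09 and 5.29 in Chemo and 9.33, 5.56, 8.06, 7.95, 5.45 and 11.34 in MC + Chemo. MC + Chemo 52, 5, 43 and 47 were above every Chemo tumor, while MC + Chemo 25 and 50 were level with the lowest Chemo tumors, 19 and 67. Ucp1, the uncoupling protein of brown fat, had 15.4, 18.2, 29.99, 5.64 and 25.2 in Chemo and 483, 44.9, 18.5, 11.5, 18.3 and 1999.6 in MC + Chemo (log2 fold change 4.52 ± 1.33 SE, adjusted p = 0.276). Thrsp, a lipogenic nuclear protein, had 13.04, 22.8, 42.99, 12.9 and 21.4 in Chemo and 254, 41.3, 54.7, 94.3, 23.9 and 842 in MC + Chemo (log2 fold change 3.28 ± 0.86 SE, adjusted p = 0.268). Fasn, the fatty acid synthase (log2 fold change 1.38 ± 0.54 SE, adjusted p = 0.354), Scd1, the stearoyl-CoA desaturase (log2 fold change 2.26 ± 0.94 SE, adjusted p = 0.371), and Srebf1, their regulator (log2 fold change 0.83 ± 0.33 SE, adjusted p = 0.354), were highest in MC + Chemo 52. The adipocyte median was 0.02 without MC + Chemo 5, 43 and 52, and without MC + Chemo 52 alone it was 0.96. Both falls follow from leaving out tumors with high fat levels and are no separate test. The number of adipocyte markers at an unadjusted p below 0.05 was 4 without MC + Chemo 52, 6 without Chemo 19 and 7 without Chemo 67.

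Cyp2e1, a cytochrome P450 of liver and fat that oxidizes ethanol and small toxicants, was the adipocyte marker that separated the groups. Its normalized counts were 3.56, 2.28, 1, 0 and 0.932 in Chemo and 28.7, 10.8, 41.3, 15.3, 11.2 and 70.6 in MC + Chemo. Every MC + Chemo tumor was above every Chemo tumor, and MC + Chemo 52, 43 and 5 were the highest. The log2 fold change was 4.30 ± 0.71 SE (edgeR adjusted p = 0.103, DESeq2 adjusted p = 0.000127), but at a mean count of 16.9 the gene was under the minimum of 30. The Chemo tumors held at most 3.56 counts each, and the part of fat content in the separation was not tested.

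Oxidative phosphorylation genes, which encode the respiratory chain and ATP synthase, were higher as a whole list. All 45 had a positive log2 fold change, 26 at an unadjusted p below 0.05, 0 called by edgeR and 2 by DESeq2 (Cox8b and Cox7a1), with a median of 0.60. Their mean log2 level was 8.66, 8.35, 8.31, 8.44 and 8.46 in Chemo and 9.29, 8.34, 9.52, 8.76, 8.47 and 10.03 in MC + Chemo, so the 3 tumors with most muscle or fat reads (MC + Chemo 5, 43 and 52) were the 3 highest of the 11. Cox7a1 and Cox8b are the cytochrome c oxidase subunits of muscle and brown fat. Cox7a1 had 15.4, 17.1, 20.99, 9.66 and 11.2 in Chemo and from 10.4 to 477 (median 180.4) in MC + Chemo (log2 fold change 3.79 ± 0.88 SE, adjusted p = 0.233), and Cox8b had 3.56, 5.70, 14, 4.03 and 7.45 in Chemo and from 3.19 to 799.8 (median 155) in MC + Chemo (log2 fold change 5.09 ± 1.26 SE, adjusted p = 0.244). Atp5a1, the alpha subunit of ATP synthase used in every tissue, had 1304, 1098, 948, 1423 and 1713 in Chemo and from 1579 to 3364 (median 2074) in MC + Chemo (log2 fold change 0.77 ± 0.23 SE, adjusted p = 0.274). Without those 3 tumors 26 of 44 members were higher and 0 were higher at an unadjusted p below 0.05, and the median was 0.05. As those tumors were the highest for this list, the fall follows from leaving them out. By library totals alone 44 of 45 were higher and 13 passed, and in the fit over 20 tumors 45 were higher and 4 passed. Leaving out 1 tumor at a time left the fewest members at an unadjusted p below 0.05 without Chemo 30 (15), Chemo 33 (14) or MC + Chemo 5 (17), 43 (15) or 52 (12).

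The remaining murine genes with the smallest p in the higher direction were Vldlr, Chchd10, Fabp3, Dnajb9, Ldhb and Angptl4. Vldlr, which takes up triglyceride-rich lipoproteins, had 56.9, 50.2, 67.98, 49.1 and 72.7 in Chemo and from 68.5 to 169 (median 129.5) in MC + Chemo (log2 fold change 1.08 ± 0.25 SE, adjusted p = 0.233), with MC + Chemo 50 alone inside the Chemo range. Chchd10, a mitochondrial intermembrane protein, had 74.7, 57.01, 38.99, 63.6 and 73.6 in Chemo and from 51.8 to 976 (median 462) in MC + Chemo (log2 fold change 2.98 ± 0.69 SE, adjusted p = 0.233). Fabp3, the fatty acid binding protein of heart and muscle, had 26.1, 13.7, 5, 8.05 and 6.52 in Chemo and from 10.8 to 583 (median 165) in MC + Chemo (log2 fold change 4.44 ± 1.07 SE, adjusted p = 0.233). For Chchd10 only MC + Chemo 50 stayed within the Chemo range, and for Fabp3 MC + Chemo 25, 47 and 50 did. Ldhb, the lactate dehydrogenase subunit of oxidative tissue, had 22.5, 21.7, 18.99, 18.5 and 39.1 in Chemo and from 34.3 to 209 (median 62.05) in MC + Chemo (log2 fold change 1.87 ± 0.46 SE, adjusted p = 0.244). Angptl4, a secreted inhibitor of lipoprotein lipase induced by fasting and hypoxia, had 212, 179, 229, 275 and 218 in Chemo and from 199 to 559.6 (median 428) in MC + Chemo (log2 fold change 0.89 ± 0.23 SE, adjusted p = 0.265), and MC + Chemo 25 at 199 was the only MC + Chemo tumor inside the Chemo range. DESeq2 called each of these 6 genes.

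**Figure D2:**
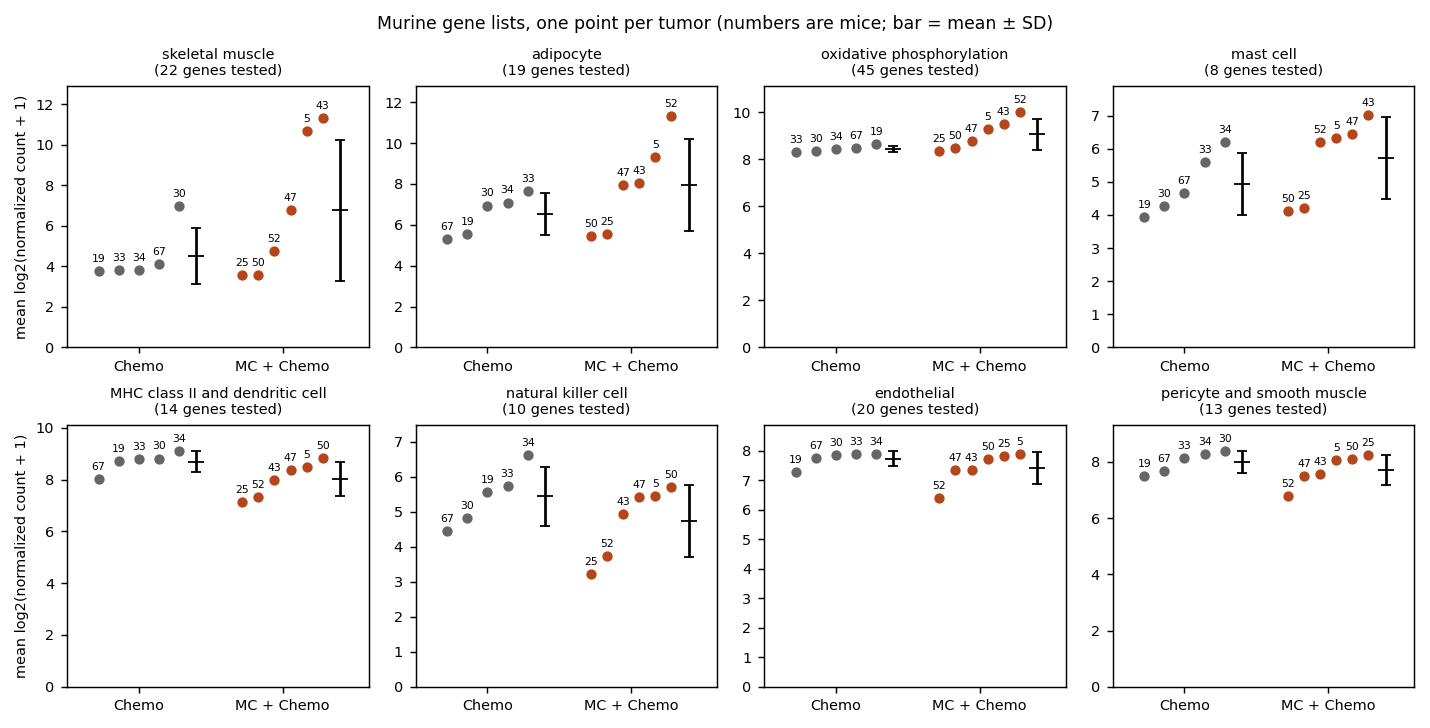
Mean log2(normalized count + 1) of 8 murine gene lists (y axis) in each tumor, grouped as Chemo and MC + Chemo, with mouse numbers on the points and the mean ± SD beside them. MC + Chemo 5 and 43 stand out for muscle, 52 and 5 for fat, and 52, 43 and 5 for oxidative phosphorylation, while the vascular and natural killer cell lists overlap between the groups.

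Log2 fold changes of antigen-presenting and natural killer cell genes were mostly negative, and few members passed an unadjusted p of 0.05. All 14 genes of MHC class II and dendritic cells were lower (3 at an unadjusted p below 0.05, 0 called by edgeR or DESeq2, median -0.42). The count of 3 was 0 without Chemo 34, 7 without Chemo 67, 6 without MC + Chemo 50 and 0 without MC + Chemo 5, 43 and 52. The 3 over all tumors were Flt3, Clec9a and Xcr1, markers of conventional dendritic cells. The growth factor receptor Flt3 had 101, 80.96, 98.97, 143 and 46.6 in Chemo and from 12.6 to 88.4 (median 40.99) in MC + Chemo (log2 fold change -1.08 ± 0.43 SE, adjusted p = 0.354). Clec9a had 23.7, 22.8, 26.99, 46.7 and 4.66 in Chemo and from 0 to 19.1 (median 10.1) in MC + Chemo (log2 fold change -1.38 ± 0.55 SE, adjusted p = 0.358), and Xcr1 had 33.2, 37.6, 46.99, 67.6 and 15.8 in Chemo and from 8.98 to 35.9 (median 18.1) in MC + Chemo (log2 fold change -0.996 ± 0.41 SE, adjusted p = 0.369). The groups overlapped for all 3. All 10 natural killer cell genes were lower (median -0.71), 1 of them at an unadjusted p below 0.05, against 6.59% of all murine genes. Without Chemo 34, 8 of 10 were lower and the median was -0.24. The gene that passed, Klrd1, which encodes CD94, had 123, 54.7, 142, 115 and 72.7 in Chemo and from 21.6 to 76.5 (median 59.4) in MC + Chemo (log2 fold change -0.91 ± 0.30 SE, adjusted p = 0.302). MC + Chemo 25 and 52 held the lowest mean levels of both lists. Without MC + Chemo 5, 43 and 52, 13 of 14 and 10 of 10 were lower, with medians of -0.28 and -0.49. T and B lymphocyte genes were sparse, with 5 of 16 tested, 4 of them lower and 0 at an unadjusted p below 0.05.

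Macrophage genes lay slightly the other way. Of 20, 16 were higher (3 at an unadjusted p below 0.05, but 0 without Chemo 33 or without MC + Chemo 43, median 0.22). Cd163, a scavenger receptor of resident macrophages, had 17.8, 75.3, 35.99, 71.7 and 32.6 in Chemo and from 14.4 to 288 (median 119.9) in MC + Chemo (log2 fold change 1.40 ± 0.55 SE, adjusted p = 0.354). Apoe, the lipid carrier abundant in tissue macrophages, had 32691, 23729, 18576, 28334 and 33303 in Chemo and from 30429 to 44510 (median 38693) in MC + Chemo (log2 fold change 0.48 ± 0.20 SE, adjusted p = 0.378). In the list of alternative activation, Folr2 (log2 fold change 1.03 ± 0.36 SE, adjusted p = 0.309), Cbr2 (log2 fold change 0.95 ± 0.37 SE, adjusted p = 0.354) and Cd209d (log2 fold change 1.42 ± 0.58 SE, adjusted p = 0.364) were higher, all markers of resident macrophages, while the chemokine Ccl17 was lower (log2 fold change -1.215 ± 0.43 SE, adjusted p = 0.315). Of the 16 members 9 were higher, 3 at an unadjusted p below 0.05, and 7 lower, 2 at that level. The highest values were in MC + Chemo 43 for Folr2, Cbr2 and Cd209d, and the lowest in MC + Chemo 25 for Cbr2 and Cd209d. The B cell attractant Cxcl13 had 3.56, 11.4, 23.99, 35.4 and 8.38 in Chemo and from 7.19 to 89.2 (median 52.7) in MC + Chemo (log2 fold change 1.65 ± 0.55 SE, adjusted p = 0.302). Leaving out MC + Chemo 5, 43 and 52 gave a macrophage median of 0.16, and no member passed an unadjusted p of 0.05.

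Mast cell and neutrophil granule genes varied widely within both groups. The mast cell chymase Cma1 had 17.8, 21.7, 76.98, 161 and 23.3 in Chemo and 190.2, 10.8, 381, 260, 11.2 and 304 in MC + Chemo (log2 fold change 1.66 ± 0.82 SE, adjusted p = 0.440). It was high in Chemo 34 and in MC + Chemo 5, 43, 47 and 52, and lowest of all in MC + Chemo 25 and 50. Of 8 mast cell genes 6 were higher (median 1.216, 0.17 without MC + Chemo 5, 43 and 52) and 0 passed an unadjusted p of 0.05. The neutrophil granule genes Ngp (log2 fold change -2.63 ± 1.07 SE, adjusted p = 0.363) and Camp (log2 fold change -2.26 ± 0.99 SE, adjusted p = 0.394) were lower, and of 13 neutrophil genes 6 were higher (1 at an unadjusted p below 0.05) and 7 lower (3). Ngp had 10.7, 21.7, 741, 395 and 46.6 in Chemo and 37.7, 43.1, 136, 15.3, 1.59 and 0.851 in MC + Chemo, with the 2 highest values in Chemo 33 and 34.

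Of 20 endothelial genes 18 had a negative log2 fold change, with a median of -0.27, and 1 was lower at an unadjusted p below 0.05, which is no larger a share than the 6.59% of all murine genes. Without MC + Chemo 52, 14 of 20 were lower and the median was -0.11. The gene that passed, Egfl7, a factor secreted by endothelium, had 579.7, 589.5, 695, 587 and 435 in Chemo and from 174 to 499.6 (median 379) in MC + Chemo (log2 fold change -0.68 ± 0.23 SE, adjusted p = 0.302). Pecam1, which encodes CD31, had 613, 774, 954, 796 and 701 in Chemo and from 245 to 750.2 (median 596) in MC + Chemo (log2 fold change -0.45 ± 0.24 SE, adjusted p = 0.458). Among 13 pericyte and smooth muscle genes 9 were lower (median -0.40), 3 of them at an unadjusted p below 0.05 (0 without Chemo 30 or without Chemo 33, 1 without MC + Chemo 43 and 6 without MC + Chemo 25). The 3 over all tumors were Rgs5 (log2 fold change -0.97 ± 0.39 SE, adjusted p = 0.358), Notch3 (log2 fold change -0.82 ± 0.33 SE, adjusted p = 0.359) and Higd1b (log2 fold change -1.25 ± 0.49 SE, adjusted p = 0.349), all markers of pericytes. Des, shared with skeletal muscle, was higher (log2 fold change 2.25 ± 0.72 SE, adjusted p = 0.294). MC + Chemo 52 was the lowest tumor of the 11 for Egfl7, Pecam1, Rgs5 and Notch3. The medians without MC + Chemo 5, 43 and 52 were -0.07 and -0.02, and 0 pericyte genes passed. Fibroblast and matrix genes were divided, with 13 of 24 higher and 0 at an unadjusted p below 0.05.

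Among murine stress and metabolic lists, hypoxia and glycolysis genes were higher for 21 of 24 (6 at an unadjusted p below 0.05, median 0.25). Hexokinase Hk2 had 244, 259, 242, 239 and 348 in Chemo and from 268 to 511 (median 442) in MC + Chemo (log2 fold change 0.64 ± 0.19 SE, adjusted p = 0.274), and aldolase Aldoa had 1276, 1119.8, 1002, 1053 and 1208 in Chemo and from 1172 to 4778 (median 1981) in MC + Chemo (log2 fold change 1.218 ± 0.35 SE, adjusted p = 0.274), with its highest values in the muscle-rich MC + Chemo 5 and 43. Without MC + Chemo 5, 43 and 52, 22 of 24 were higher, 1 at an unadjusted p below 0.05 (median 0.31). Without MC + Chemo 25 alone 16 of 24 were higher (median 0.07), and by library totals alone 15 of 24 (median 0.08). All 13 heat shock genes were higher, and 0 passed an unadjusted p of 0.05 by edgeR and 3 by DESeq2 (median 0.34). NRF2 targets were higher for 21 of 26 (median 0.19, 0.04 by library totals alone). Their 4 members at an unadjusted p below 0.05 were Me1, malic enzyme (log2 fold change 1.15 ± 0.37 SE, adjusted p = 0.294), G6pdx, glucose-6-phosphate dehydrogenase (log2 fold change 0.63 ± 0.26 SE, adjusted p = 0.366), Ftl1, ferritin light chain (log2 fold change 0.55 ± 0.23 SE, adjusted p = 0.381), and Txn1, thioredoxin (log2 fold change 0.51 ± 0.24 SE, adjusted p = 0.418). All 4 were highest in MC + Chemo 52 or 47. None of the list passed without MC + Chemo 5, 43 and 52. Interferon-stimulated genes (26 of 41 higher), p53 targets (8 of 21), proliferation genes (8 of 29), chemokines (15 of 28), metalloproteinases (14 of 23), sterol and fatty acid synthesis genes (12 of 23), keratinocyte genes (8 of 8), erythroid genes (10 of 11) and mitochondrial transcripts (8 of 8) had at most 3 members at an unadjusted p below 0.05 in either direction. By library totals alone the medians of the interferon, chemokine, metalloproteinase, sterol and fibroblast lists turned from slightly positive to slightly negative.

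Gli1 (ENSMUSG00000025407) did not overlap between the groups. It encodes a transcription factor of the Hedgehog pathway whose own level reports pathway activity in stromal cells. Its normalized counts were 64.02, 61.6, 70.98, 56.4 and 33.5 in Chemo and from 16.2 to 30.6 (median 19.9) in MC + Chemo. Every MC + Chemo tumor lay below every Chemo tumor, and Chemo 67 was the nearest (log2 fold change -1.44 ± 0.25 SE, adjusted p = 0.103, DESeq2 adjusted p = 0.000463). The Hedgehog receptor and target Ptch1 had a log2 fold change of -0.44 ± 0.20 SE (adjusted p = 0.417), with overlapping groups. The related factors Gli2 (log2 fold change -0.08 ± 0.24 SE, adjusted p = 0.913, but 0.20 when MC + Chemo 5, 43 and 52 were left out) and Gli3 (log2 fold change -0.12 ± 0.23 SE, adjusted p = 0.859) differed by less than their standard errors. Ptch1, Gli2 and Gli3 were looked up after Gli1 was seen.

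The other 7 murine genes named in the lower direction had varied roles. Srsf5, a serine- and arginine-rich splicing factor, had 669, 642, 935, 731 and 559 in Chemo and from 369 to 509.9 (median 404) in MC + Chemo (log2 fold change -0.73 ± 0.16 SE, adjusted p = 0.233). Clk1, the kinase of such factors, had 456, 457, 459, 536 and 324 in Chemo and from 180.4 to 331 (median 224) in MC + Chemo (log2 fold change -0.85 ± 0.18 SE, adjusted p = 0.233). Tet2, which oxidizes methylated cytosine, had 200.4, 185, 234, 217 and 198 in Chemo and from 83.4 to 138 (median 131) in MC + Chemo (log2 fold change -0.74 ± 0.15 SE, adjusted p = 0.195). The groups did not overlap for Srsf5 and Tet2, and for Clk1 they met only through Chemo 67 and MC + Chemo 43. Krit1, a protein of endothelial junctions, had 402, 382, 399, 379 and 285 in Chemo and from 168 to 255 (median 208) in MC + Chemo (log2 fold change -0.80 ± 0.15 SE, adjusted p = 0.170). Mdm4, an inhibitor of p53, had 369.9, 343, 369, 385 and 222 in Chemo and from 129 to 236 (median 184) in MC + Chemo (log2 fold change -0.90 ± 0.20 SE, adjusted p = 0.233). The zinc finger gene Zmym6 (log2 fold change -0.90 ± 0.20 SE, adjusted p = 0.233) and the lipid flippase gene Atp10d (log2 fold change -1.05 ± 0.24 SE, adjusted p = 0.233) were lower without overlap. DESeq2 called all 8 genes including Gli1. These 8 were picked by their small p, which favors separation of the groups. Over all murine genes tested, 139 (0.995%) had every MC + Chemo tumor below every Chemo tumor.

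**Figure D3:**
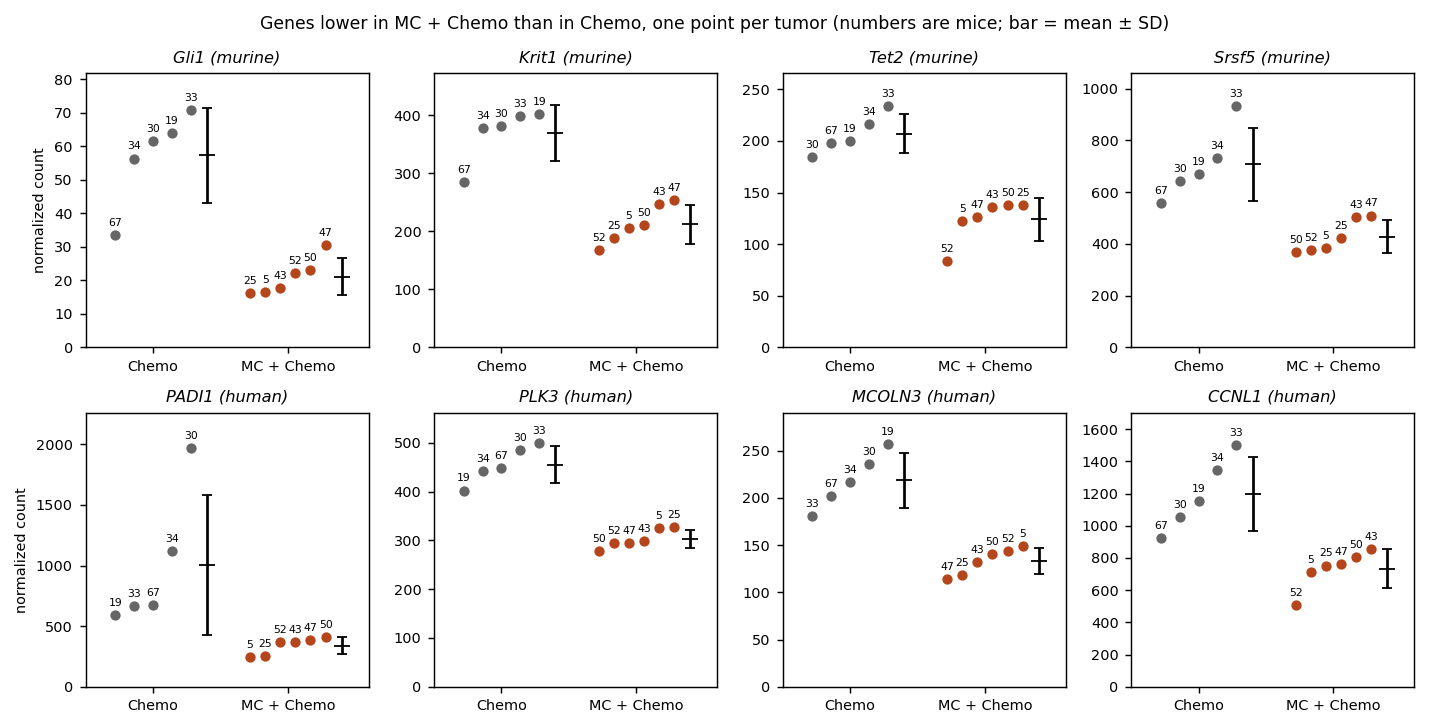
Normalized counts (y axis, from 0) of 4 murine genes (top) and 4 human genes (bottom) in each tumor, with mouse numbers on the points and the mean ± SD beside them. The genes were picked by their small p, and the groups do not overlap for any of the 8. Chemo 67 is the lowest Chemo tumor for Gli1, Krit1, Srsf5 and CCNL1.

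Most human genes with the smallest p were lower in MC + Chemo. PLK3 (ENSG00000173846), a stress-activated polo-like kinase and p53 target, had 402, 485, 500, 442 and 448 in Chemo and from 279 to 327 (median 297) in MC + Chemo (log2 fold change -0.59 ± 0.10 SE, adjusted p = 0.103, DESeq2 adjusted p = 0.000489). PADI1 (ENSG00000142623), an enzyme that turns arginine into citrulline in epithelial proteins, had 589, 1970.3, 663, 1119 and 675 in Chemo and from 242 to 409.7 (median 373) in MC + Chemo (log2 fold change -1.56 ± 0.28 SE, adjusted p = 0.103, DESeq2 adjusted p = 0.000263). Chemo 30 was far above the other Chemo tumors for PADI1, and every Chemo tumor exceeded every MC + Chemo tumor for both genes. MCOLN3, an endolysosomal cation channel, had 257, 235, 181, 217 and 202 in Chemo and from 115 to 149 (median 136) in MC + Chemo (log2 fold change -0.71 ± 0.13 SE, adjusted p = 0.103). PSMA6, an alpha subunit of the proteasome, had 89.8, 77.3, 88.7, 72.3 and 64.5 in Chemo and from 27.99 to 50.5 (median 41.3) in MC + Chemo (log2 fold change -0.95 ± 0.19 SE, adjusted p = 0.122). Of 2 other alpha subunit genes, looked up afterwards, PSMA5 was higher (log2 fold change 0.51 ± 0.21 SE, adjusted p = 0.325) and PSMA2 had a log2 fold change of 0.06 ± 0.18 SE (-0.02 by library totals alone). ZNF26 (log2 fold change -0.67 ± 0.13 SE, adjusted p = 0.122) and ZNF431 (log2 fold change -0.73 ± 0.16 SE, adjusted p = 0.141) are zinc finger genes. CCNL1, a cyclin of splicing speckles, had 1156, 1054, 1499, 1347 and 925 in Chemo and from 507 to 856 (median 758) in MC + Chemo (log2 fold change -0.71 ± 0.15 SE, adjusted p = 0.137), and PTBP2, a splicing repressor, had 175, 159, 252, 185 and 171 in Chemo and from 89.6 to 130.3 (median 118) in MC + Chemo (log2 fold change -0.71 ± 0.15 SE, adjusted p = 0.139). None of these 8 genes overlapped between the groups, but they were picked by their small p, which favors separation. Over all human genes tested, 227 (1.48%) had every MC + Chemo tumor below every Chemo tumor. DESeq2 called 7 of the 8. The eighth, PLK3, had a DESeq2 log2 fold change of -0.57, short of the 0.58 that 1.5-fold equals.

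The same genes were looked up in the other genome of the same tumors after their values were seen. Of the 16 genes named as lowest, 11 had a tested gene of the same symbol in the other genome. Human SRSF5 had 1497, 1663, 2158, 1665 and 1516 in Chemo and from 1051 to 1378 (median 1195) in MC + Chemo (log2 fold change -0.52 ± 0.12 SE, adjusted p = 0.144), and human MDM4 had 772, 838, 775, 795 and 661 in Chemo and from 355 to 595 (median 574) in MC + Chemo (log2 fold change -0.55 ± 0.14 SE, adjusted p = 0.153). Both were lower without overlap, as were 1.48% of all human genes tested. Human CLK1 (log2 fold change -0.40 ± 0.13 SE, adjusted p = 0.226), KRIT1 (log2 fold change -0.37 ± 0.14 SE, adjusted p = 0.290) and TET2 (log2 fold change -0.45 ± 0.18 SE, adjusted p = 0.311) were lower with overlapping groups, as were murine Ccnl1 (log2 fold change -0.61 ± 0.17 SE, adjusted p = 0.274) and Ptbp2 (log2 fold change -0.63 ± 0.19 SE, adjusted p = 0.274). The log2 fold changes of the remaining 4 were -0.04 for human ZMYM6, 0.08 for human ATP10D, -0.43 for murine Plk3 and 0.43 for murine Psma6. On the higher side 12 named genes had a tested counterpart. Their log2 fold changes ran from -0.10 (murine Tnfsf12) to 0.83 (murine Sod2). Human VLDLR and murine Mpv17l2 were also negative, at -0.05 each, and the others were positive. Both genomes were read from the same 11 libraries, so the paired values are not independent, and reads shared between the genomes were not tested.

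Identifiers without a symbol made up much of the lower side. Of 2841 such human identifiers tested, 497 were lower (17.5%) and 46 higher (1.62%) at an unadjusted p below 0.05, against 857 lower (6.87%) and 641 higher (5.14%) of the 12474 genes with a symbol. The median log2 fold change was -0.13 for the former and 0.02 for the latter. In the murine genome 286 of 1710 identifiers without a symbol were lower (16.7%) and 101 higher (5.91%), against 635 lower (5.18%) and 646 higher (5.27%) of 12266 with one, and the medians were 0.08 and 0.02. Among the DESeq2 calls, 48 of the 93 human and 27 of the 77 murine genes had no symbol. The identifiers with the smallest edgeR p were ENSG00000228972 and ENSG00000245532. The former had 71.6, 62.1, 61.5, 55.9 and 38.6 in Chemo and 12.9, 18.96, 15.2, 18.4, 25.3 and 9.80 in MC + Chemo (log2 fold change -1.79 ± 0.27 SE, adjusted p = 0.103), and the latter had 17140, 16887, 12314, 18675 and 9095 in Chemo and 5617, 5361, 8803, 5996, 5720.4 and 3323 in MC + Chemo (log2 fold change -1.35 ± 0.23 SE, adjusted p = 0.103). Both separated the groups, with Chemo 67 nearest to the MC + Chemo tumors. Identifiers without a symbol took up 8.71 ± 1.23% of human counts in Chemo and 7.48 ± 1.20% in MC + Chemo, a difference within the spread of the tumors (exact permutation p = 0.126, adjusted p = 0.8294). What kind of transcript they are is not given in the tables, and the part of RNA quality in their difference was not tested.

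DNAJB9 (ENSG00000128590), a chaperone of the endoplasmic reticulum induced by the unfolded protein response, had 222, 156, 206, 225 and 254 in Chemo and from 289 to 410 (median 317) in MC + Chemo in the human genome (log2 fold change 0.64 ± 0.14 SE, adjusted p = 0.141, DESeq2 adjusted p = 0.0118). Murine Dnajb9 had 69.9, 70.7, 79.98, 72.5 and 74.5 in Chemo and from 90.8 to 129 (median 111) in MC + Chemo (log2 fold change 0.60 ± 0.15 SE, adjusted p = 0.241, DESeq2 adjusted p = 0.0305). All MC + Chemo tumors were above all Chemo tumors in each genome. HERPUD1, which helps to remove misfolded proteins from that compartment, had 557, 397, 502, 558 and 615 in Chemo and from 625 to 808 (median 698) in MC + Chemo (log2 fold change 0.44 ± 0.12 SE, adjusted p = 0.196), again without overlap. Of 20 human genes of the integrated and endoplasmic reticulum stress responses, 18 were higher, 3 at an unadjusted p below 0.05 (DNAJB9, HERPUD1 and CRELD2), with a median of 0.15. Of the list 0 were called by edgeR and 1 by DESeq2 (DNAJB9), which called 0.523% of all human genes. Without MC + Chemo 5, 43 and 52, 14 of 20 were higher (median 0.17), and without Chemo 33, 15 of 20 (median 0.18). By library totals alone 16 of 20 were higher (median 0.08). Of 13 human heat shock genes 12 were higher, 5 at an unadjusted p below 0.05 (median 0.29). The constitutive chaperone HSPA8 had 2401, 1819, 1206, 2355 and 2892 in Chemo and from 2730.2 to 4182 (median 3406) in MC + Chemo (log2 fold change 0.68 ± 0.19 SE, adjusted p = 0.2004), its inducible relative HSPA1A had 483, 365, 564, 493 and 651 in Chemo and from 523 to 829.9 (median 709) in MC + Chemo (log2 fold change 0.45 ± 0.15 SE, adjusted p = 0.244) and the co-chaperone BAG3 had 439.8, 519, 427, 677 and 832 in Chemo and from 747 to 1122 (median 901) in MC + Chemo (log2 fold change 0.64 ± 0.18 SE, adjusted p = 0.194). For BAG3 the groups met only through Chemo 67, and for HSPA8 and HSPA1A they overlapped. Without MC + Chemo 5, 43 and 52, 12 of 13 heat shock genes were higher and 4 passed an unadjusted p of 0.05 (median 0.26), and by library totals alone the median was 0.21.

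**Figure D4:**
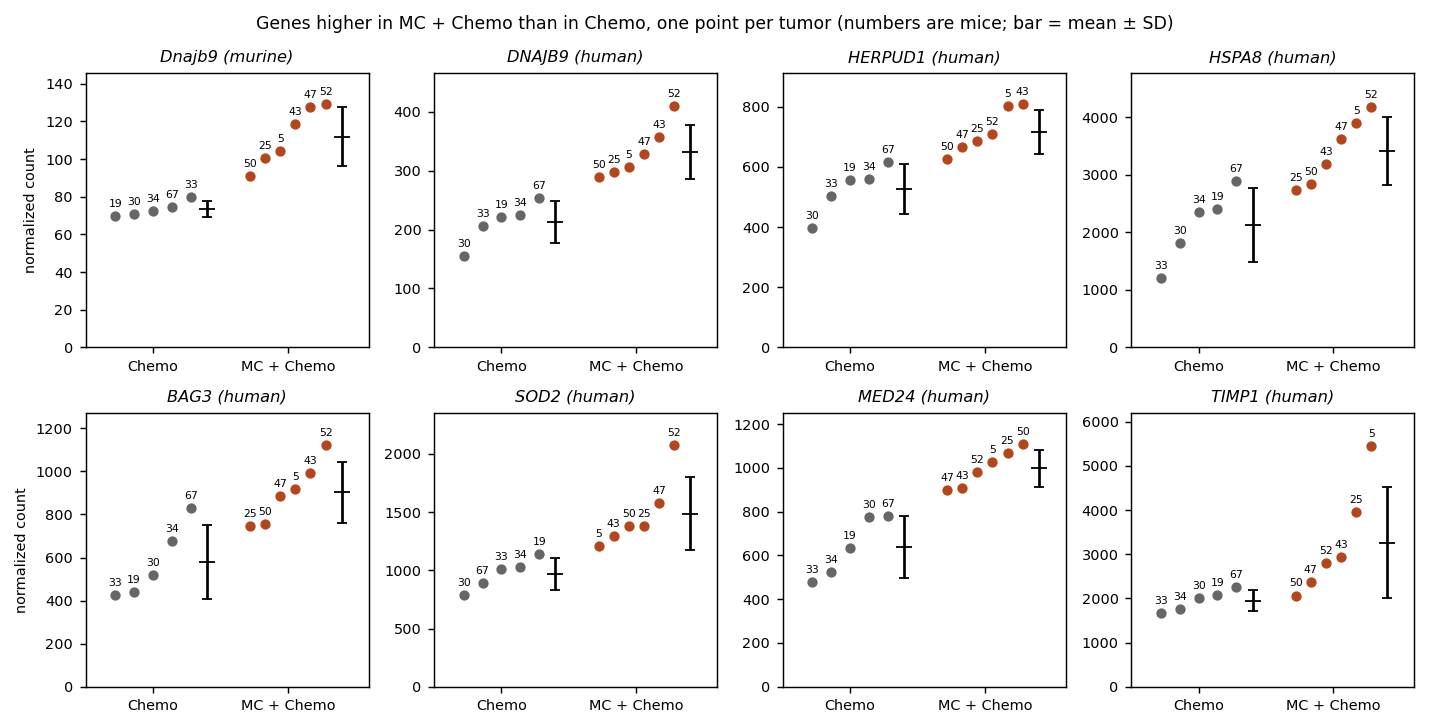
Normalized counts (y axis, from 0) of murine Dnajb9 and 7 human genes in each tumor, with mouse numbers on the points and the mean ± SD beside them. The groups are apart for Dnajb9, DNAJB9, HERPUD1, SOD2 and MED24 and meet for HSPA8, BAG3 and TIMP1.

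The other human genes named on the higher side had a fold change near the minimum. MED24, a subunit of the Mediator complex, had 632, 777, 479.9, 522 and 782 in Chemo and from 899 to 1108 (median 1004) in MC + Chemo (log2 fold change 0.64 ± 0.14 SE, adjusted p = 0.139). SOD2, the mitochondrial superoxide dismutase, had 1142, 784, 1011, 1029 and 889.7 in Chemo and from 1206 to 2075 (median 1379) in MC + Chemo (log2 fold change 0.61 ± 0.15 SE, adjusted p = 0.150), and murine Sod2 had a log2 fold change of 0.83 ± 0.28 SE (adjusted p = 0.308). TNFSF12, the cytokine TWEAK (log2 fold change 0.61 ± 0.14 SE, adjusted p = 0.144), PNRC1, a nuclear receptor coactivator (log2 fold change 0.64 ± 0.15 SE, adjusted p = 0.144), and MPV17L2, a mitochondrial membrane protein (log2 fold change 0.68 ± 0.17 SE, adjusted p = 0.150), also separated the groups. Of these 5 genes with DNAJB9 and BAG3, DESeq2 called all but BAG3. All were picked by their small p, which favors separation of the groups. Over all human genes tested, 58 (0.379%) had every MC + Chemo tumor above every Chemo tumor.

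Among secreted genes in the human genome the inflammatory cytokines were mostly higher. Of 21 inflammatory cytokine genes tested 18 were higher, 6 at an unadjusted p below 0.05 (2 without Chemo 30 and 2 without MC + Chemo 52) and 0 called by edgeR or DESeq2 (median 0.32, 0.25 without MC + Chemo 5, 43 and 52). The alarmin IL1A had 120.5, 48.03, 47.3, 117 and 115 in Chemo and from 108 to 181 (median 151) in MC + Chemo (log2 fold change 0.75 ± 0.25 SE, adjusted p = 0.244). The neutrophil attractant CXCL1 had 4141, 2346, 3401, 3382 and 2378 in Chemo and from 2776 to 8185 (median 4416) in MC + Chemo (log2 fold change 0.63 ± 0.24 SE, adjusted p = 0.301). Its relative CXCL2 had 103, 57.4, 121, 125 and 124 in Chemo and from 117 to 237 (median 158) in MC + Chemo (log2 fold change 0.59 ± 0.22 SE, adjusted p = 0.290). The groups overlapped for all 3, and MC + Chemo 52 was highest for CXCL1 and CXCL2. TIMP1, an inhibitor of metalloproteinases, had 2082, 2004, 1662, 1752 and 2258 in Chemo and from 2066 to 5454 (median 2870.5) in MC + Chemo (log2 fold change 0.74 ± 0.21 SE, adjusted p = 0.201), and the collagenase MMP1 had 98.9, 69.1, 88.7, 81.6 and 125 in Chemo and from 33.4 to 486 (median 194) in MC + Chemo (log2 fold change 1.18 ± 0.48 SE, adjusted p = 0.315). In the list of metalloproteinases and vascular growth 16 of 23 were higher, with a median of 0.16. The calprotectin subunit S100A8 had 109, 99.6, 29.6, 197 and 103 in Chemo and 159, 95.9, 157, 338, 121 and 699.7 in MC + Chemo (log2 fold change 1.29 ± 0.51 SE, adjusted p = 0.303), with MC + Chemo 52 far above the other tumors. The median of the calprotectin and antimicrobial list was 0.30, and 0.01 without MC + Chemo 5, 43 and 52.

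Human hypoxia and glycolysis genes were higher for 21 of 25, 3 at an unadjusted p below 0.05 by edgeR and 6 by DESeq2 (median 0.22). The glucose transporter SLC2A1 had 3197, 2948, 2871, 3241 and 4302 in Chemo and from 3544 to 4928 (median 4061) in MC + Chemo (log2 fold change 0.30 ± 0.13 SE, adjusted p = 0.349) and HK2 had 323, 226, 199, 322 and 558 in Chemo and from 358 to 549 (median 453) in MC + Chemo (log2 fold change 0.49 ± 0.22 SE, adjusted p = 0.354). Chemo 67 had the highest HK2 value of the 11 tumors. By library totals alone 21 of 25 were higher. By edgeR no member was higher at an unadjusted p below 0.05 by library totals alone, in the fit over 20 tumors, or without Chemo 30, Chemo 33, MC + Chemo 43 or MC + Chemo 47, and 7 were without Chemo 67. MHC class I presentation genes were higher for 13 of 16, 1 of them at an unadjusted p below 0.05.

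NRF2 targets, the genes best known to answer isothiocyanates, were higher in the human genome for 19 of 25 tested, with a median of 0.10. By edgeR 0 higher members passed an unadjusted p of 0.05 over the 11 tumors, against 2 by DESeq2, 3 by edgeR without Chemo 67, and 1 in the fit over 20 tumors, without Chemo 19 or without MC + Chemo 25. Thioredoxin TXN had 1941, 1196, 1929, 2003 and 4393 in Chemo and from 2573 to 6082 (median 2804) in MC + Chemo (log2 fold change 0.60 ± 0.30 SE, adjusted p = 0.402). The efflux transporter ABCC3 was lower, with 894, 1481, 1919.6, 1345 and 701 in Chemo and from 487 to 1091 (median 759) in MC + Chemo (log2 fold change -0.68 ± 0.26 SE, adjusted p = 0.299). Among drug efflux transporters, carbonyl reductases and topoisomerases 6 of 13 were higher, ABCC5 was lower (log2 fold change -0.48 ± 0.20 SE, adjusted p = 0.323) and CBR1 higher (log2 fold change 0.29 ± 0.13 SE, adjusted p = 0.352), both at an unadjusted p below 0.05. Cytochrome P450 and aldehyde dehydrogenase genes divided evenly, with 13 of 23 higher and 1 in each direction at an unadjusted p below 0.05.

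Proliferation, p53 and interferon genes lay on both sides. Of 33 proliferation genes 22 were higher (median 0.07), with the helicase gene HELLS lower (log2 fold change -0.41 ± 0.14 SE, adjusted p = 0.252) and the replication gene MCM2 higher (log2 fold change 0.38 ± 0.17 SE, adjusted p = 0.354) at an unadjusted p below 0.05. Of 22 p53 targets 10 were higher, and PLK3 was the only one at an unadjusted p below 0.05. CDKN1A, the main cell cycle brake downstream of p53, had 2536, 2044, 2057, 2511 and 2686 in Chemo and from 2474 to 2928 (median 2767) in MC + Chemo (log2 fold change 0.22 ± 0.11 SE, adjusted p = 0.406). Of 35 interferon-stimulated genes 13 were higher (median -0.07). The members with the smallest p were STAT2 and IRF9, subunits of the factor that drives these genes. STAT2 had 1285, 1996, 2338, 1678 and 1275 in Chemo and from 829 to 1306 (median 1124) in MC + Chemo (log2 fold change -0.65 ± 0.17 SE, adjusted p = 0.171), and IRF9 had 106, 114, 121, 79.2 and 51.2 in Chemo and from 39.2 to 62.1 (median 57.2) in MC + Chemo (log2 fold change -0.78 ± 0.22 SE, adjusted p = 0.196). ISG15, a ubiquitin-like product of the same response, was on the other side with 3928, 4445, 4476, 3993 and 5235 in Chemo and from 3822 to 6384 (median 5488) in MC + Chemo (log2 fold change 0.30 ± 0.14 SE, adjusted p = 0.372).

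Lists of cell identity and signaling were also divided. Epithelial genes were divided 11 to 11 with 0 at an unadjusted p below 0.05. Of 22 mesenchymal genes 15 were higher, and LUM (log2 fold change 1.39 ± 0.50 SE, adjusted p = 0.265) and TGFBI (log2 fold change 0.57 ± 0.21 SE, adjusted p = 0.269) were among those at an unadjusted p below 0.05. Keratin and cornified envelope genes were lower for 13 of 21, with KRT13 (log2 fold change -0.75 ± 0.25 SE, adjusted p = 0.242), KRT15 (log2 fold change -0.52 ± 0.20 SE, adjusted p = 0.300) and KRT16 (log2 fold change -0.44 ± 0.19 SE, adjusted p = 0.343) lower and SFN (log2 fold change 0.40 ± 0.18 SE, adjusted p = 0.353) higher. KRT13, KRT15 and KRT16 are near relatives in sequence, so their reads may be divided between them. In insulin and IGF signaling 13 of 23 were higher. PRKAA2, a catalytic subunit of the energy sensor AMPK, had 585, 460.4, 456, 486 and 463 in Chemo and from 310.3 to 428 (median 375) in MC + Chemo without overlap (log2 fold change -0.41 ± 0.11 SE, adjusted p = 0.196). The binding proteins IGFBP7 (log2 fold change 0.69 ± 0.25 SE, adjusted p = 0.270) and IGFBP2 (log2 fold change -0.95 ± 0.38 SE, adjusted p = 0.310) went opposite ways. Sterol and fatty acid synthesis genes were higher for 17 of 24 (median 0.07, -0.02 by library totals alone), including ACLY, which makes cytosolic acetyl-CoA (log2 fold change 0.33 ± 0.11 SE, adjusted p = 0.251). Histone genes (9 of 14 higher) and human mitochondrial transcripts (10 of 13) had at most 1 member at an unadjusted p below 0.05. By library totals alone the medians of the proliferation, insulin, cytochrome P450 and histone lists also turned from slightly positive to slightly negative.

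**Figure D5:**
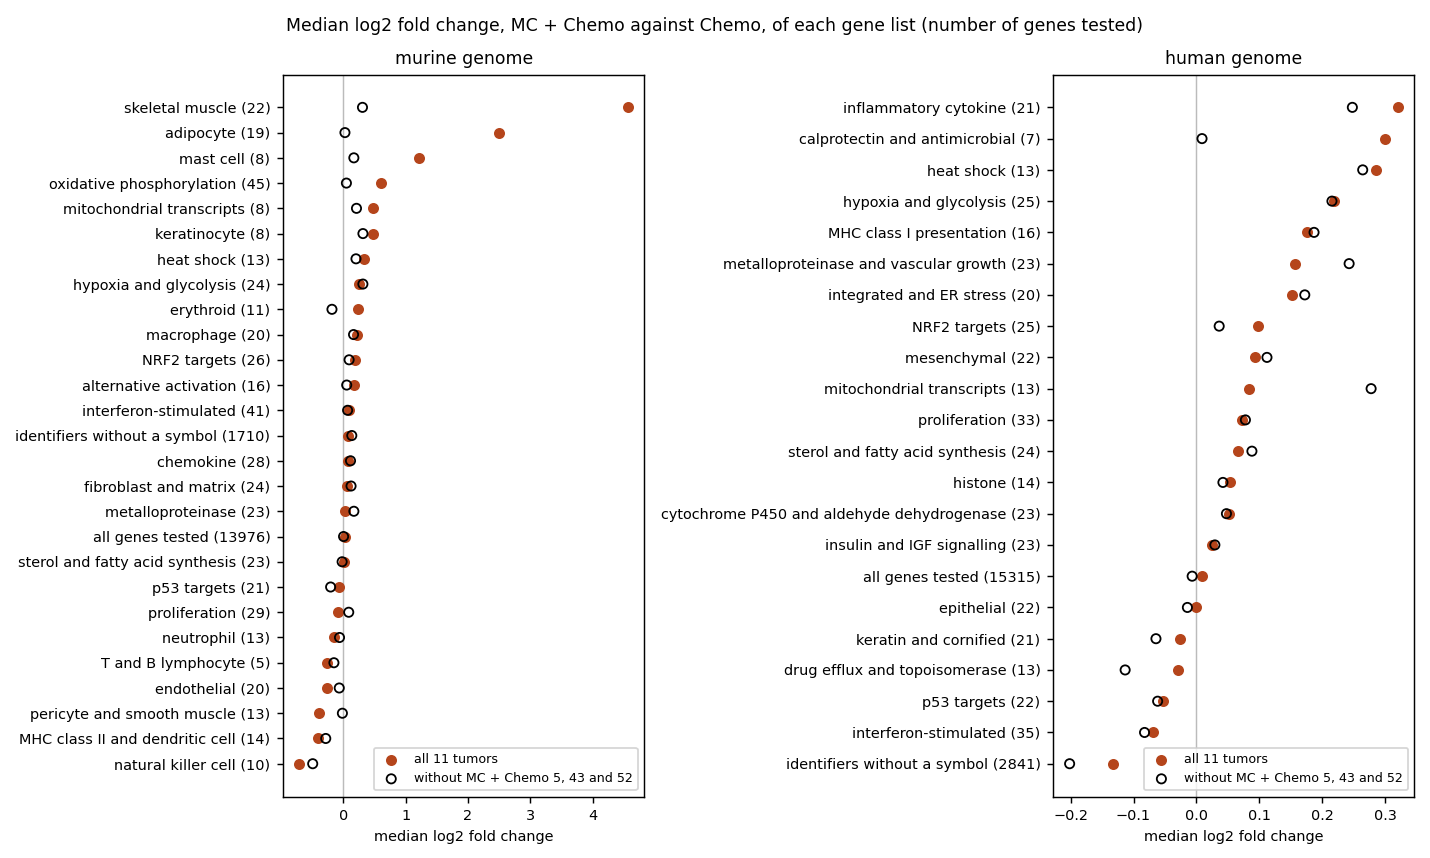
Median log2 fold change of MC + Chemo against Chemo (x axis) for each gene list (y axis, genes tested in brackets) in the murine (left) and human genome (right), over all 11 tumors (filled) and without MC + Chemo 5, 43 and 52 (open). The human globin list of 2 genes is not drawn. Murine muscle, adipocyte, mast cell and oxidative phosphorylation medians go from 4.57, 2.49, 1.216 and 0.60 to 0.31, 0.02, 0.17 and 0.05, and the human axis spans a far smaller range. The tumors left out had the most muscle or fat reads and were chosen after seeing the data. The falls of the muscle, adipocyte and oxidative phosphorylation medians follow from that choice.

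Of the genes taken as named by the study, 23 murine and 27 human ones were tested. By edgeR 0 were called in either genome, and DESeq2 called 2 murine and 0 human ones. They were chosen by the study on these tumors, so their directions are not independent evidence. In the murine genome 20 of 23 were higher and 8 passed an unadjusted p of 0.05, all of them muscle genes or Cyp2e1. Hemoglobin genes did not differ beyond their spread, with 8916, 5242, 2149, 2139.8 and 6844 in Chemo and from 3289 to 11843 (median 4438) in MC + Chemo for Hbb-bs (log2 fold change 0.23 ± 0.43 SE, adjusted p = 0.858, turning to -0.43 without MC + Chemo 5, 43 and 52 and -0.10 without MC + Chemo 43). The collagenase Mmp13 had 1449, 844, 1391, 1476 and 2010.3 in Chemo and 4654, 7868, 748, 1963, 2044 and 766 in MC + Chemo (log2 fold change 1.07 ± 0.53 SE, adjusted p = 0.443), where MC + Chemo 5 and 25 were above all others and MC + Chemo 43 and 52 below all others. In the human genome 16 of 27 were higher, and 4 passed an unadjusted p of 0.05 (ISG15 higher, and HELLS, ANKRD36B and CRADD lower). The running text of the study names Cyp2e1, but none of these 4 and no skeletal muscle gene. ANKRD36B, an ankyrin repeat gene with near-identical copies that may share its reads, had 126, 179, 155, 136 and 105 in Chemo and from 31.5 to 97.04 (median 84.4) in MC + Chemo without overlap (log2 fold change -0.96 ± 0.26 SE, adjusted p = 0.179), and the death adaptor CRADD had 40.9, 32.8, 46.1, 47.8 and 51.2 in Chemo and from 16.9 to 36.4 (median 30) in MC + Chemo (log2 fold change -0.64 ± 0.23 SE, adjusted p = 0.279). Human HBB, which with HBD formed the globin list, had 210.2, 137, 23.6, 76.9 and 201 in Chemo and 152, 60.04, 586, 168, 117 and 192 in MC + Chemo (log2 fold change 0.70 ± 0.53 SE, adjusted p = 0.569, but -0.19 when MC + Chemo 5, 43 and 52 were left out). Its highest value was in MC + Chemo 43, which also had the highest murine Hbb-bs (11843).

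Whether MC acted differently beside chemotherapy than without it was tested as the difference between 2 contrasts, MC + Chemo against Chemo and MC against CTRL, over 20 tumors. The 5 MC tumors, from mice given the MC diet alone, and the 4 CTRL tumors share no tumor with the first contrast. By edgeR 0 of 15011 murine genes (0%) and 0 of 16434 human genes (0%) passed the 3 criteria, with smallest adjusted p of 0.695 and 0.511. The difference had an unadjusted p below 0.05 for 1031 murine (6.87%) and 1600 human genes (9.74%). It was not run without MC + Chemo 5, whose labels conflict. DESeq2 called 0 murine genes and, in the human genome, 1 identifier without a symbol for this difference. Gli1 had a log2 fold change of 0.45 for MC against CTRL, and the 2 contrasts differed by -1.89 (adjusted p = 0.695). PADI1 had 0.33 and a difference of -1.89 (adjusted p = 0.511). For MC against CTRL the log2 fold change was 8.86 for Cox8b and 6.07 for Cox7a1 (edgeR adjusted p = 0.242 for both). No difference between the 2 contrasts passed its test for any gene named here.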

How the data were processed

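RNA from 24 xenograft tumors was sequenced from the 3′ end of transcripts (QuantSeq, 50 bp forward reads). The authors aligned and counted the reads with BlueBee software and deposited raw counts per gene for the human genome (build not given in the sources used here) and the murine genome (GRCm38 in the submitters' processing notes, which also name DESeq2 1.22.2). They also deposited normalized counts, a signal in which each count was divided by a DESeq2 size factor of its library. Per-tumor values given here are not the deposited ones but raw counts rescaled with edgeR's TMM factors over the 11 tumors. All tests used the raw counts. The gene symbols are those of the normalized tables. No fold changes or p-values of the authors were used.

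Counts of the 6 MC + Chemo and 5 Chemo tumors were fitted with the edgeR 4.0.16 quasi-likelihood test (TMM scaling, filterByExpr) in R 4.3.3, separately per genome, with Benjamini-Hochberg adjustment over all genes tested. A gene was called at an adjusted p below 0.05, a mean normalized count above 30 and a fold change above 1.5, the criteria of the study. DESeq2 1.42.0 was run as an alternative. All adjusted p-values in the text are from edgeR unless DESeq2 is named. The SE given with a log2 fold change was derived from the test. It is the absolute log2 fold change divided by the square root of the quasi-likelihood F statistic. The difference between contrasts was fitted over 20 tumors. The edgeR fits were also run on simulated counts with a common spread for all genes. That run does not cover genes whose spread comes from a few tumors, as seen here. List scores are the mean log2(normalized count + 1) of the members tested. Shares of counts were compared by two-sided exact permutation tests, whose smallest p with 6 against 5 tumors is 0.00216. With the totals seen here, a share of all counts has a counting error far below the spread between tumors, and intervals would cover counting error only.

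Named were up to 8 genes higher and 8 lower per genome with the smallest p among those with a symbol, a mean count above 30 and a fold change above 1.5, the genes taken as named by the study, up to 4 members per list by p, and marker genes. Some items that this rule covers are not reported here. The groups, members and lists were chosen with earlier results of these data known. Alternatives were other scalings, no filter, DESeq2, a 20-tumor fit and leaving out each tumor. For the difference between contrasts the only alternative was DESeq2.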

Additional observations from a re-analysis of the deposited data

Results flagged for a closer look

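In 168 groups of 5 or 6 tumors, 15 had a tumor farther from the others than Dixon's 95% limit allows (8.93%). Chance alone flags about 1 group in 20 when groups are independent. Here all groups share the same 11 tumors and some genes were picked by their small p, so an excess over chance cannot be judged. No explanation was tested for any of the 15. In MC + Chemo 25, 26.3% of murine counts were on identifiers without a symbol (11.95 to 16.3% in the other MC + Chemo tumors) and 31.4% on the 50 most abundant genes (20.8 to 23.3%). Its mean log2 level of alternative activation genes was 5.91 (7.23 to 7.80). In MC + Chemo 52 the mean log2 level was 6.40 for endothelial genes (7.34 to 7.89) and 8.99 for human insulin and IGF genes (9.26 to 9.37), and the normalized count was 83.4 for Tet2 (122 to 138) and 507 for CCNL1 (711 to 856). In Chemo 67 the normalized count was 39.1 for Ldhb (18.5 to 22.5), 285 for Krit1 (379 to 402), 222 for Mdm4 (343 to 385) and 201 for ZNF26 (249 to 266). In Chemo 30 the mean log2 level of murine muscle genes was 6.97 (3.78 to 4.14). In Chemo 19 the mean log2 level was 7.30 for endothelial genes (7.74 to 7.90) and 6.15 for sterol and fatty acid synthesis genes (6.57 to 6.73). In Chemo 33 that of murine mitochondrial transcripts was 10.0 (10.8 to 11.1).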

How the results depend on the processing

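With edgeR no gene was called in either genome under DESeq2 size factors, library totals alone, no filter, the 20-tumor fit or an adjusted p alone. DESeq2 called 77 murine and 93 human genes, and 1 human gene for the difference between contrasts. Leaving out 1 tumor gave 0 to 20 murine and 0 to 13 human calls, with all calls coming from the fit without Chemo 67. Murine genes higher at an unadjusted p below 0.05 numbered 747, and 1183 by DESeq2, 331 by library totals alone, 129 without MC + Chemo 5, 43 and 52, and 418 to 1149 without 1 tumor (455 without Chemo 30, 495 without Chemo 33, 1149 without Chemo 67 and 418 without MC + Chemo 52). Murine genes lower numbered 921, and 1601 by library totals alone, 557 without MC + Chemo 5, 43 and 52, and 671 to 1178 without 1 tumor. Human genes higher numbered 687, and 347 by library totals alone, 234 without MC + Chemo 5, 43 and 52, and 406 to 1165 without 1 tumor (406 without Chemo 30 and 1165 without Chemo 67). Human genes lower numbered 1354, and 658 without MC + Chemo 5, 43 and 52, and 958 to 1642 without 1 tumor. The human share of counts, MC + Chemo against Chemo, differed by 1.13 percentage points, and the difference ran from -0.385 (without Chemo 34) to 2.41 (without Chemo 67), and was -0.197 without MC + Chemo 25. The cause of these shifts was not tested, and a fit without 3 tumors also holds fewer samples. The log2 fold change turned without MC + Chemo 5, 43 and 52 for Hbb-bs (-0.43, and -0.10 to 0.52 without 1 tumor, -0.10 being without MC + Chemo 43), Gli2 (0.20), HBB (-0.19) and PSMA2 (-0.14, and -0.022 by library totals alone and -0.11 to 0.16 without 1 tumor, -0.11 being without MC + Chemo 52). Leaving out these 3 tumors, which had the most muscle or fat reads, and counting genes at an unadjusted p were chosen after seeing the data. No paired analysis was possible because the replicate numbers are mouse numbers and the groups share none. With 5 and 6 tumors, a miss of the adjusted threshold does not show equal levels, and the reads of both genomes come from the same libraries.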
